A study of Mus musculus with 10 samples.

Results

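The cytosolic sulfotransferases described here are Sult1d1, Sult2b1, Sult1a1, Sult1b1, Sult1c2, Sult1e1, Sult3a1 and Sult5a1, 8 of the 16383 genes that the arrays measured with a named probe in mouse liver. They were taken by gene symbol, all 8 had a probe, and each had exactly 1. The choice was made with the difference between the genotypes already known, so that difference is given below as a description and carries no test. The array also measured 7 further cytosolic sulfotransferases, Sult1c1, Sult2a4, Sult2a8, Sult3a2, Sult4a1, Sult6b1 and Sult6b2, which are set beside the 8.

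Cytosolic sulfotransferases pass a sulfonate group from the donor PAPS (3'-phosphoadenosine 5'-phosphosulfate) to small molecules such as phenols, catecholamines, thyroid hormones, steroids, sterols and bile acids. The sulfated products are as a rule more water-soluble and are carried out of the cell, and a sulfated hormone no longer binds its receptor. Liver is a main site of this reaction, where it works beside glucuronidation, and several sulfotransferase genes respond to the xenobiotic receptors CAR and PXR or differ between the sexes in rodents.

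The groups were 6 mice heterozygous for a knockout of Tgfbr2, whose protein binds TGF-beta as its type II receptor, and 4 wild-type (WT) littermates. Both were on a chow diet, and liver RNA of each animal was hybridised on 2-colour arrays against a pool of liver RNA from 6 WT mice. The labels of the heterozygous animals name males and those of the WT animals and of the pool state no sex; strain, age and the cell types that carry the deletion are not given in the sources used here. Each value is a log2 ratio over the pool, so it shows how a gene varied and not how abundant its RNA was, and levels of different genes cannot be compared. For the same reason the labelled tissue could not be checked against the presence of its markers, since a ratio of liver to liver is near 0 for them.

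Each ratio probably runs as animal over pool, which the sources do not settle, and every sign below rests on it. The titles name the pool first and the animal second, and do not state which is divided by the other. The direction thus rests mainly on Tgfbr2. That gene averaged -0.32 ± 0.22 in Tgfbr2+/- libraries (SD, n = 6) and 0.15 ± 0.19 in WT libraries (SD, n = 4) over its 2 probes. Its probes disagreed, with a difference of -0.88 ± 0.26 (SE) on one and -0.07 ± 0.09 on the other, and which of them lies in the deleted part is not known. Over both probes the difference was -0.47 ± 0.12 (SE), which became -0.36 when the signs of WT replicate 1 were reversed and -0.31 when those of Tgfbr2+/- replicate 5 were. The library labelled Tgfbr2+/- replicate 4 stood apart here, at 0.05 against -0.50 to -0.18 in the other 5, and thus goes against its label on this gene. WT replicate 1 and Tgfbr2+/- replicate 5 correlated with each other at r = -0.32 over all probes, so either column may be turned, and differences are also given with the sign of each turned. Whether a column joins dye-swapped arrays is unknown, and nothing says how the animals were housed or processed together. In these bulk samples, fewer cells of a type and less RNA per cell cannot be told apart.

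Of the 8 genes, 5 had a mean difference between Tgfbr2+/- and WT of -0.41 to -0.66 on the log2 scale, and the other 3 lay between -0.03 and 0.06. The 5 are Sult1d1, Sult1a1, Sult2b1, Sult1e1 and Sult1b1. In all, 7 of the 8 differences were negative, where 47.4% of all genes had a negative one. Over all genes 0.702% had a difference of -0.4 or lower, which is given for scale only since this contrast guided the choice. No gene of the whole table passed limma's Benjamini-Hochberg adjusted p of 0.05 between the genotypes (0% of 16383, and 908 at an unadjusted p under 0.05). The groups overlapped for each of the 8, where over all genes 0.354% were lower and 0.726% were higher without overlap.

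Sult1d1, which sulfates catecholamines and other amines and phenols in mouse, had the lowest difference of the 8. Its log2 ratio ranged from -0.74 to 0.05 with a median of -0.66 in Tgfbr2+/- libraries, against 0.39, 0.05, 0.32 and -0.30 in WT replicates 1 to 4. In 5 of the 6 heterozygous libraries it lay between -0.74 and -0.53, below every WT library, and the exception was Tgfbr2+/- replicate 3 at 0.05. WT replicate 4 was the one WT library below the pool. The means were -0.55 ± 0.30 in Tgfbr2+/- (SD, n = 6) and 0.12 ± 0.31 in WT (SD, n = 4), a difference of -0.66 ± 0.17 (SE), or 1.58-fold lower. It was -0.47 with WT replicate 1 turned in sign and -0.42 with Tgfbr2+/- replicate 5 turned.

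Sult1a1, the main phenol sulfotransferase, ranged from -1.04 to -0.06 with a median of -0.45 in Tgfbr2+/- libraries, against 0.16, 0.13, -0.002 and -0.09 in WT replicates 1 to 4. All 6 heterozygous libraries lay below the pool and 5 of them below every WT library, while Tgfbr2+/- replicate 1 at -0.06 lay just inside the WT range. The lowest values were those of Tgfbr2+/- replicates 5 and 6, at -0.84 and -1.04. The means were -0.50 ± 0.38 in Tgfbr2+/- (SD, n = 6) and 0.05 ± 0.11 in WT (SD, n = 4), a difference of -0.55 ± 0.17 (SE), or 1.47-fold lower. Turning WT replicate 1 gave -0.47, and turning Tgfbr2+/- replicate 5 gave -0.27.

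Sult2b1, which sulfates cholesterol and other 3-beta-hydroxysteroids, ranged from -0.55 to -0.02 with a median of -0.39 in Tgfbr2+/- libraries. In WT replicates 1 to 4 it was at 0.18, 0.18, 0.18 and -0.13. As for Sult1d1, the heterozygous library nearest to WT was replicate 3 and the WT library nearest to the heterozygous ones was replicate 4, and the other 5 heterozygous libraries lay below every WT library. The means were -0.34 ± 0.19 in Tgfbr2+/- (SD, n = 6) and 0.10 ± 0.16 in WT (SD, n = 4), a difference of -0.45 ± 0.10 (SE), or 1.36-fold lower. It was -0.36 with WT replicate 1 turned and -0.32 with Tgfbr2+/- replicate 5 turned. Sult1d1, Sult1a1 and Sult2b1 were the 3 of the 8 with at least 5 heterozygous libraries below all WT libraries, a pattern that 2.07% of all genes showed.

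Sult1e1, the estrogen sulfotransferase, overlapped more between the groups. It ranged from -1.07 to 0.25 with a median of -0.30 in Tgfbr2+/- libraries, against 0.42, 0.33, 0.23 and -0.63 in WT replicates 1 to 4. A single heterozygous library, replicate 6 at -1.07, lay below every WT library, and WT replicate 4 lay below 5 of the 6 heterozygous ones. The means were -0.36 ± 0.45 in Tgfbr2+/- (SD, n = 6) and 0.09 ± 0.48 in WT (SD, n = 4). The difference was -0.45 ± 0.26 (SE), or 1.36-fold lower, and it was -0.69 without WT replicate 4. With WT replicate 1 or Tgfbr2+/- replicate 5 turned it was -0.24 in both cases.

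Sult1b1, which sulfates phenols and thyroid hormones, owed most of its difference to a pair of libraries. It was at -0.79 and -1.42 in Tgfbr2+/- replicates 5 and 6, and between -0.14 and 0.11 in the other 4 heterozygous libraries, against 0.38, 0.08, -0.16 and -0.23 in WT replicates 1 to 4. Those 4 heterozygous libraries thus lay within the WT range. The means were -0.40 ± 0.59 in Tgfbr2+/- (SD, n = 6) and 0.02 ± 0.28 in WT (SD, n = 4). The difference was -0.41 ± 0.28 (SE), or 1.33-fold lower, and -0.06 without Tgfbr2+/- replicates 5 and 6. The same omission, an alternative chosen after seeing the data, gave -0.21 for Sult1e1, -0.33 for Sult1a1, -0.42 for Sult2b1 and -0.59 for Sult1d1. With WT replicate 1 turned the difference of Sult1b1 was -0.22, and with Tgfbr2+/- replicate 5 turned -0.15.

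The other 3 genes had differences near 0, less than the spread within groups. Sult1e1 and Sult1b1 above also differed by less than their SD within groups, which was 0.46 and 0.50. Sult1c2, a member of the 1C branch, ranged from -0.27 to 0.24 with a median of -0.02 in Tgfbr2+/- libraries, against 0.14, -0.48, -0.22 and 0.26 in WT replicates 1 to 4, a difference of 0.06 ± 0.15 (SE). Sult3a1, an amine sulfotransferase that is female-predominant in mouse liver, ranged from -0.32 to 0.43 with a median of 0.07 in Tgfbr2+/- libraries, against 0.03, 0.06, 0.25 and -0.12 in WT replicates 1 to 4, a difference of -0.01 ± 0.13. Sult5a1 ranged from -0.51 to 0.32 with a median of 0.001 in Tgfbr2+/- libraries, against -0.19, 0.06, 0.24 and -0.21 in WT replicates 1 to 4, a difference of -0.03 ± 0.14. None of the 3 kept its sign when single libraries were left out: Sult1c2 ranged from -0.07 to 0.17, Sult3a1 from -0.08 to 0.07 and Sult5a1 from -0.10 to 0.07. With WT replicate 1 or Tgfbr2+/- replicate 5 turned, they were at 0.13 or 0.13, 0.01 or 0.10, and -0.12 or -0.13.

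**Figure D1:**
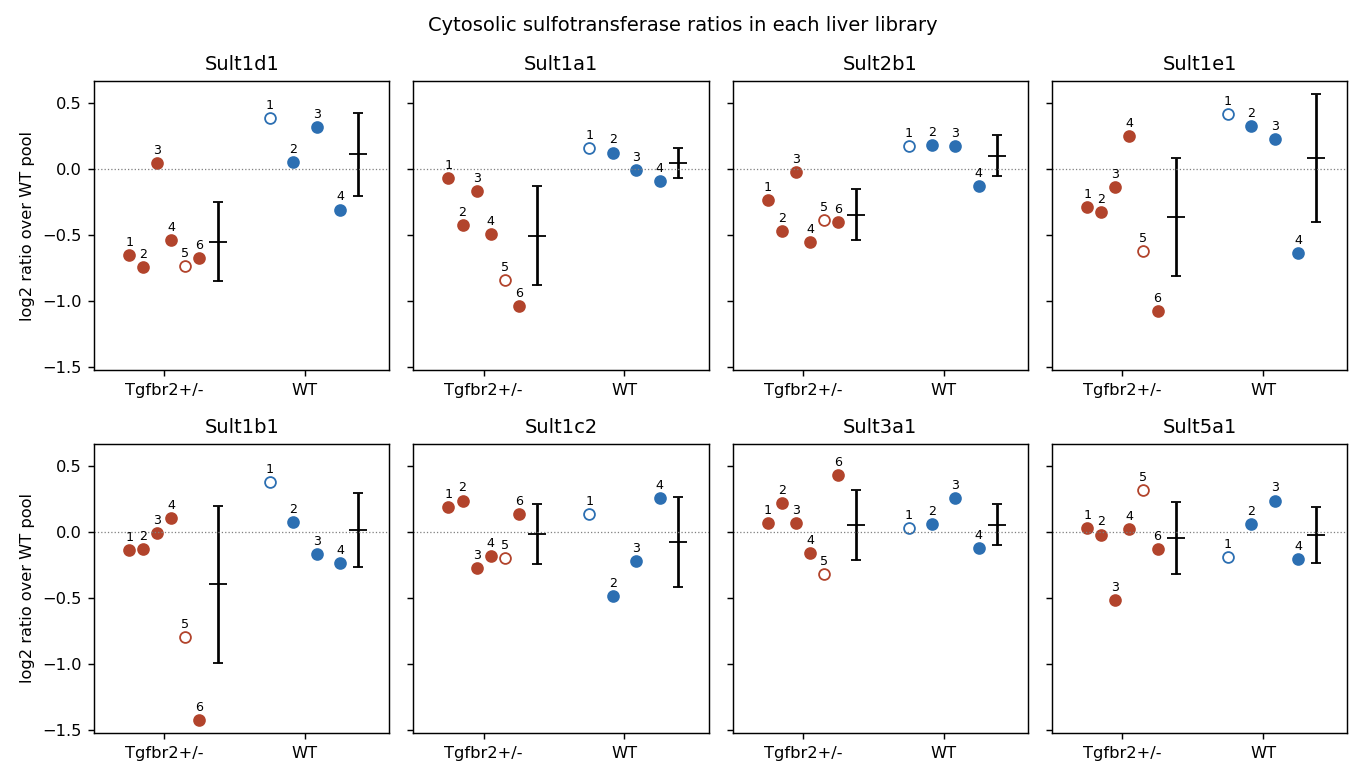
Log2 ratio over the WT pool (vertical axis) of the 8 sulfotransferases in each Tgfbr2+/- library (red, n = 6) and WT library (blue, n = 4), with replicate numbers above the points and the mean ± SD in black. Open circles mark the 2 libraries whose direction is not settled, Tgfbr2+/- replicate 5 and WT replicate 1. Sult1d1 shows 5 heterozygous libraries between -0.74 and -0.53 with replicate 3 at 0.05, while for Sult1b1 replicates 5 and 6 are low and the other 4 lie within the WT range.

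All 8 genes varied more between animals of a group than the median gene did. The SD within groups was 0.50 for Sult1b1, 0.46 for Sult1e1, 0.31 for Sult1a1 and Sult1d1 and 0.18 for Sult2b1, against a median of 0.11 over all genes. Sult1b1 thus exceeded 99.0% of genes and Sult2b1 81.8%. Over the libraries, the mean of the 5 genes Sult1d1, Sult1a1, Sult2b1, Sult1e1 and Sult1b1 was -0.27, -0.41, -0.06, -0.24, -0.67 and -0.92 in Tgfbr2+/- replicates 1 to 6, against 0.31, 0.15, 0.11 and -0.28 in WT replicates 1 to 4. Tgfbr2+/- replicate 3 was close to the pool and WT replicate 4 lay within the range of the heterozygous libraries. In WT replicate 4 all 5 genes were below the pool, as in Tgfbr2+/- replicates 1, 2, 5 and 6.

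The mean over all 10 libraries was set against the pool, a contrast that is orthogonal to the difference between the genotypes. As the pool is WT, a gene lower in Tgfbr2+/- than in WT tends to have a mean below the pool too. The contrast thus gives no separate support for the chosen genes. It was -0.28 ± 0.08 (SE) for Sult1d1, -0.28 ± 0.08 for Sult1a1 and -0.16 ± 0.05 for Sult2b1, with limma adjusted p of 0.209, 0.210 and 0.215, and the other 5 had adjusted p from 0.419 to 0.831. None of the 8 passed, where 0.0061% of all genes did, a single gene (Hao2, a peroxisomal hydroxyacid oxidase, chosen after its values were seen). That gene did not pass with Tgfbr2+/- replicate 1, 2, 4 or 6 or WT replicate 4 left out, when the count was 0. This test leaves out the spread of the pool and any dye bias.

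Sult1b1, Sult1d1 and Sult1e1 are direct neighbours, in this order and on the same strand, on chromosome 5 of the RefSeq annotation, with no other annotated gene between them. Their differences were -0.41 ± 0.28, -0.66 ± 0.17 and -0.45 ± 0.26 (SE). Of the 6 measured genes before them, all UDP-glucuronosyltransferases, Ugt2b38 differed by 1.48 ± 0.51 (SE), upward, and the other 5 by -0.18 to 0.22. The 6 measured genes after them, 5 casein genes and Smr3a, differed by -0.15 to 0.12. With all libraries, the 3 sulfotransferases thus had lower differences than all 12 measured flanking genes. This is a description, since 3 of these 15 genes were chosen on this contrast. Without Tgfbr2+/- replicates 5 and 6, an omission chosen after seeing the data, the difference of Sult1b1 was -0.06.

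**Figure D2:**
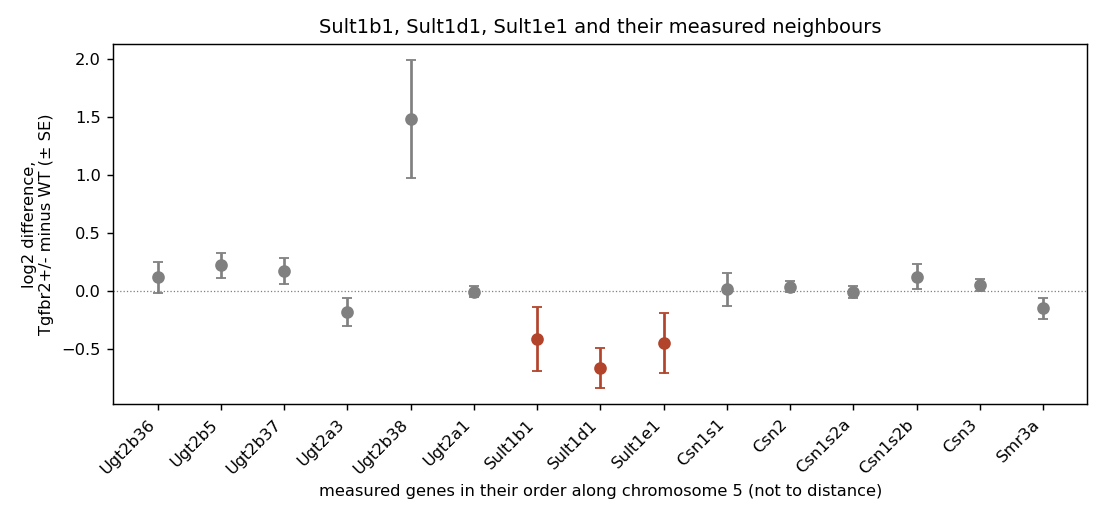
Log2 difference, Tgfbr2+/- minus WT, ± SE (vertical axis) of Sult1b1, Sult1d1 and Sult1e1 (red) and of the 6 measured genes on either side (grey), in their order along chromosome 5. The 3 sulfotransferases lie between -0.66 and -0.41, Ugt2b38 at 1.48 and the other flanking genes between -0.18 and 0.22.

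The promoter windows of this run of neighbours are shown because the 3 genes had the same sign of difference and lie next to each other. Each window runs from 250 bases before to 50 bases after a RefSeq gene start, 5' to 3' along the gene, in build GRCm38.p6, minus strand: chr5:87538146-87538445 and chr5:87536173-87536472 for the 2 annotated starts of Sult1b1, chr5:87568957-87569256 for Sult1d1 and chr5:87591562-87591861 for Sult1e1. Capitals mark matches on either strand to 4 motifs, AGGTCA (the half-site of nuclear receptors such as CAR and PXR), TTCNNNGAA (the palindrome that STAT factors bind), GTTAAT (a half-site of the liver factor HNF1) and TATAAA (the TATA box).
Sult1b1, first window: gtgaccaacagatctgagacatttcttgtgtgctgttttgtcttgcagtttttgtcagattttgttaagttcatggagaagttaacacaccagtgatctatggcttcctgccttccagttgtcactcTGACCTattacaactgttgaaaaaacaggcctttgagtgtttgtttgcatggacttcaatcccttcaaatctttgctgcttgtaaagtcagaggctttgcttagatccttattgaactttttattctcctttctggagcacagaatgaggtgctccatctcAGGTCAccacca
Sult1b1, second window: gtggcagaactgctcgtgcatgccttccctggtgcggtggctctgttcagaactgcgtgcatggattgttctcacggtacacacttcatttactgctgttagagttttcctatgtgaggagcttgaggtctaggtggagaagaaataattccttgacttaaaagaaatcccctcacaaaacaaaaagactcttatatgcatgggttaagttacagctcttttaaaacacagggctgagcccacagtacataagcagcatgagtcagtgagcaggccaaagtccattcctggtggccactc
Sult1d1: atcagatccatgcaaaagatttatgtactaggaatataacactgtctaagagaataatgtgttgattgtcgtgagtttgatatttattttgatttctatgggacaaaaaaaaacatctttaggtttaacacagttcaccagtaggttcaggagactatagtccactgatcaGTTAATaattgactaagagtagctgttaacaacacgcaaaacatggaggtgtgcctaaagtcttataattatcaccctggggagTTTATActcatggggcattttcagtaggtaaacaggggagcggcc
Sult1e1: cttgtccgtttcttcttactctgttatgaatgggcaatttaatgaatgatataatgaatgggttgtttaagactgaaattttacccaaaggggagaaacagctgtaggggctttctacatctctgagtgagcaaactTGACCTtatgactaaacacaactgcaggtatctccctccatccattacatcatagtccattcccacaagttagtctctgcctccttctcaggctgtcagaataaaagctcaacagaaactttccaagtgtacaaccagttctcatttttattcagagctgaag

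AGGTCA occurred in the first window of Sult1b1, from bases 128 (reverse strand) and 289, and in that of Sult1e1, from base 138 (reverse strand), counted from the 5' end. The window of Sult1d1 held GTTAAT from base 172 and TATAAA on the reverse strand from base 256, and no AGGTCA. The second window of Sult1b1 held none of the 4 motifs. Over 32851 promoter windows of the same length, 16.3% held AGGTCA, 8.3% TTCNNNGAA, 7.1% GTTAAT and 13.6% TATAAA on either strand. No matches of different motifs overlapped in these windows. Among the 10 windows of the 8 genes (Sult1b1 and Sult2b1 have 2 each), AGGTCA was in 2, GTTAAT in 2, and TTCNNNGAA and TATAAA in 1 each. A match describes letters in the window and shows no binding.

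Across libraries, with each group's mean removed, the highest correlations lay among the 5 genes with the lower means. This takes out the mean difference between the labelled groups. It does not take out the effect of a library that goes against its label. Sult1b1 correlated with Sult1a1 (r = 0.85) and Sult1e1 (r = 0.84), and Sult1a1 with Sult1e1 (r = 0.64). Sult1d1 correlated with Sult2b1 (r = 0.80). The 10 pairs among the 5 genes with the lower means all had positive r, with a median of 0.56 and a range of 0.24 to 0.85, while the 18 pairs that involve Sult1c2, Sult3a1 or Sult5a1 had a median of -0.20 and a range of -0.48 to 0.24. The mean over all pairs of genes in the table was 0.003. Positive and negative r cancel in that mean, so it does not show how large r commonly is. Among 16382 genes, Sult2b1 ranked 68 in its r with Sult1d1. Without Tgfbr2+/- replicates 5 and 6, chosen after seeing the data, the pairs among the 5 genes had a median of 0.46. Their range was then 0.15 (Sult1a1 with Sult1e1) to 0.83 (Sult2b1 with Sult1a1). Some pairs of Sult2b1 rested on Tgfbr2+/- replicate 3 and WT replicate 4, the 2 libraries farthest in that gene. Without these, r of Sult2b1 was 0.37 with Sult1a1, -0.03 with Sult1e1 and -0.04 with Sult1b1. The 2 libraries farthest in Sult1d1 were Tgfbr2+/- replicate 3 and WT replicate 1. Without those, r of Sult1d1 was 0.18 with Sult1b1, 0.16 with Sult1a1 and 0.65 with Sult1e1.

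Each of the 28 pairs was tested by exact permutation over the 17280 orders of the libraries within their groups, two-sided. For Sult1b1 and Sult1e1 the exact p was 0.000116 and 0.00324 after Benjamini-Hochberg adjustment over the 28 pairs, with Spearman's rho at 0.79 (exact p = 0.00903, adjusted p = 0.253). Without the 2 libraries farthest from the median of Sult1b1, Tgfbr2+/- replicates 5 and 6, r was 0.75. For Sult1a1 and Sult1b1 the adjusted exact p was 0.118, rho was 0.75 (adjusted exact p = 0.326) and r was 0.80 without Tgfbr2+/- replicates 1 and 6, the 2 farthest in Sult1a1. Its r was 0.25 without Tgfbr2+/- replicates 5 and 6, an omission chosen after seeing the data. For Sult1d1 and Sult2b1 the adjusted exact p was 0.282, rho was 0.65 (adjusted exact p = 0.326), and r was 0.54 without Tgfbr2+/- replicate 3 and WT replicate 1, the 2 farthest in Sult1d1. Only the pair of Sult1b1 and Sult1e1 passed of the 28, on Pearson's r and not on rho. With WT replicate 1 or Tgfbr2+/- replicate 5 turned its r was 0.83 or 0.89.

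**Figure D3:**
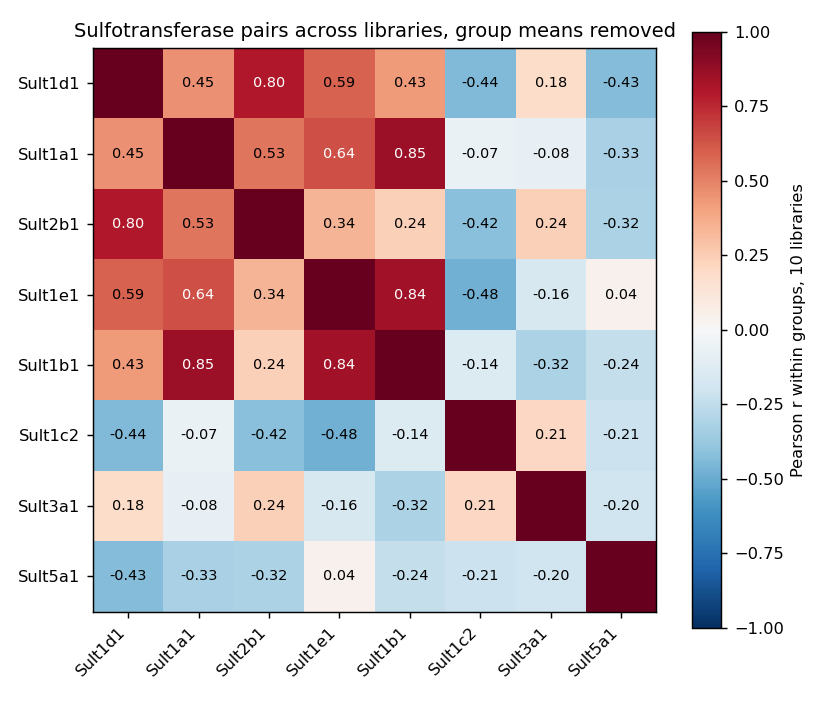
Pearson's r between each pair of the 8 sulfotransferases over 10 libraries after subtracting each group's mean, with red for positive and blue for negative r. The pairs among Sult1d1, Sult1a1, Sult2b1, Sult1e1 and Sult1b1 have positive r from 0.24 to 0.85. Only the pair of Sult1b1 and Sult1e1 passed after adjustment. Pairs that involve Sult1c2, Sult3a1 or Sult5a1 range from -0.48 to 0.24.

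Sult1d1 correlated across libraries with Cyp2b10, the cytochrome P450 that serves as the standard readout of CAR in mouse liver. This gene is also on the list of female-biased liver genes described below. Cyp2b10 was at -1.22 to -0.21 with a median of -0.93 in Tgfbr2+/- libraries, against 0.32, 0.33, 0.67 and -0.77 in WT replicates 1 to 4. As for Sult1d1, Tgfbr2+/- replicate 3 was the highest heterozygous library and WT replicate 4 the lowest WT library. With group means removed r was 0.88 (exact permutation p = 0.00411, 0.0329 after adjustment over the 8 sulfotransferases), rho was 0.88 (exact p = 0.00689, adjusted p = 0.0551), and r was 0.79 without Tgfbr2+/- replicate 3 and WT replicate 4. It was 0.90 with WT replicate 1 turned and 0.96 with Tgfbr2+/- replicate 5 turned. The pair thus passed on Pearson's r and not on rho. The adjustment covers the 8 sulfotransferases and not the choice of Cyp2b10 as their partner. Cyp2b9, named after its values were seen, had r = 0.82 with Sult1d1 and differed by -1.86 ± 0.52 (SE) between the genotypes. The mean of the female-biased list had r = 0.77 with Sult1d1. Whether Sult1d1 varied with CAR or with sex-biased expression was not tested.

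The other 7 sulfotransferases passed with Cyp2b10 on neither r nor rho. Their r with Cyp2b10 was 0.69 for Sult2b1 (adjusted exact p = 0.138), 0.62 for Sult1e1, -0.69 for Sult1c2 (adjusted exact p = 0.138), 0.27 for Sult3a1, 0.23 for Sult1b1, 0.22 for Sult1a1 and -0.09 for Sult5a1. For Sult2b1 r was 0.25 without Tgfbr2+/- replicate 3 and WT replicate 4. Whether r differs between these genes was not tested.

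**Figure D4:**
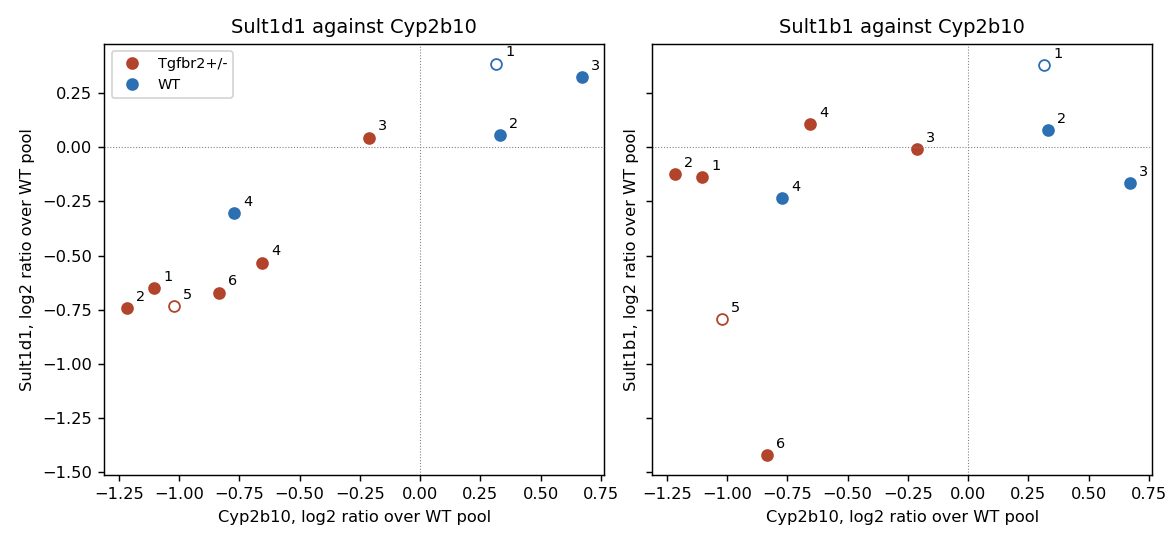
Log2 ratio over the WT pool of Sult1d1 (left) and Sult1b1 (right) against that of Cyp2b10 in each library, with replicate numbers, Tgfbr2+/- in red and WT in blue, and open circles for the 2 libraries of unsettled direction. For Sult1d1, r is 0.88 over all 10 libraries with group means removed. Tgfbr2+/- replicate 3 lies near the WT libraries and WT replicate 4 near the heterozygous ones. Sult1b1 is low in Tgfbr2+/- replicates 5 and 6 (r = 0.23 by the same measure).

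By the same measure of likeness, the 4 genes nearest to Sult1d1 among 16382 were E130311K13Rik (r = 0.93), Cycs, which encodes cytochrome c (r = 0.92), Lysmd3 (r = 0.92) and Eif1a (r = 0.92), and Cyp2b10 ranked 17. Those nearest to Sult2b1 were Pllp (r = 0.93), the folate carrier Slc19a1 (r = 0.92), Cops3 (r = 0.92) and the amino acid transporter Slc38a2 (r = 0.92), and Sult1d1 ranked 62. These are the highest of many correlations over 10 libraries and are given as a description. Between the genotypes Cycs differed by -0.17 ± 0.10 (SE) and Slc19a1 by -0.37 ± 0.22, and no gene of these 8 passed.

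The 7 remaining cytosolic sulfotransferases differed by -0.10 to 0.11, with 4 negative and 3 positive. Their median was -0.01, against a median of 0.004 over all genes. None of the 7 passed (smallest limma adjusted p = 0.919). Sult1d1, Sult1a1, Sult2b1, Sult1e1 and Sult1b1 had differences of larger size, while those of Sult1c2, Sult3a1 and Sult5a1 lay within the range of the 7. The genes set against the 7 were chosen with this contrast known, so the comparison is a description and carries no test. Sult2a4 and Sult2a8 belong to the branch that sulfates bile acids and hydroxysteroids, and Sult2a4 differed by 0.10 ± 0.06 (SE) and Sult2a8 by 0.07 ± 0.12. The 4 probes of Sult2a4 ranged from -0.075 to 0.21, and near-identical copies of this branch lie side by side in the genome, so its probes may read more than 1 gene. Sult3a2, the close relative of Sult3a1, differed by 0.11 ± 0.07 and Sult1c1, the relative of Sult1c2, by -0.10 ± 0.09. Sult4a1, which is known from brain, differed by -0.03 ± 0.06, Sult6b1 by -0.02 ± 0.06 and Sult6b2 by -0.01 ± 0.07.

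**Figure D5:**
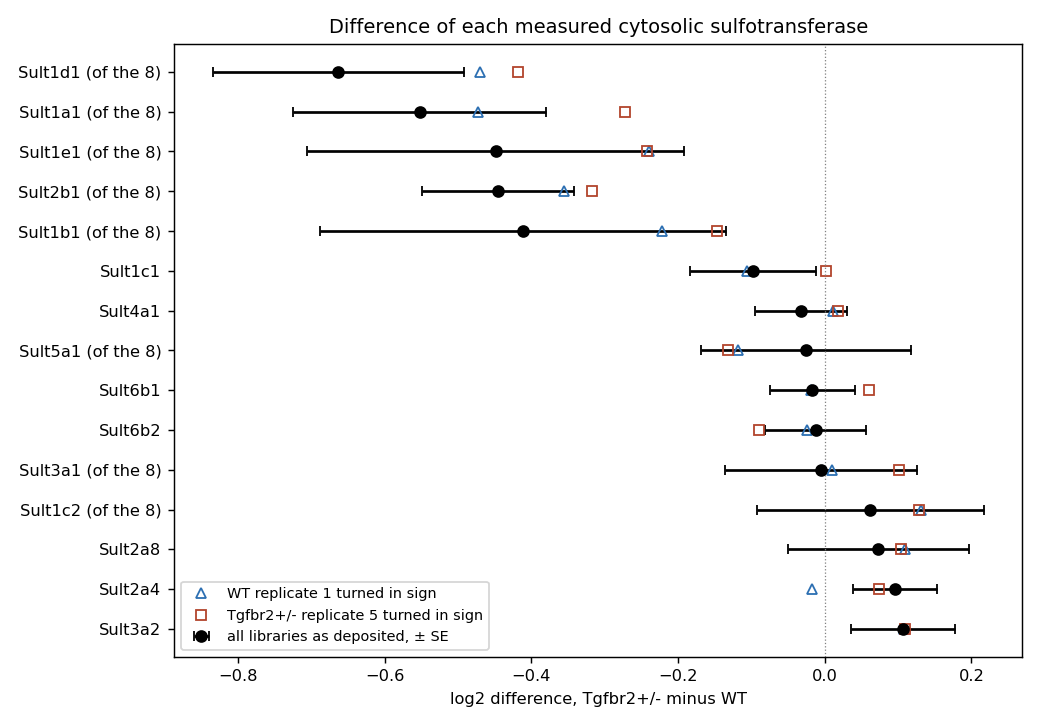
Log2 difference, Tgfbr2+/- minus WT (horizontal axis), of the 15 measured cytosolic sulfotransferases, as circles ± SE with all libraries as deposited, and as open symbols with WT replicate 1 (triangles) or Tgfbr2+/- replicate 5 (squares) turned in sign. Sult1d1, Sult1a1, Sult1e1, Sult2b1 and Sult1b1 lie between -0.66 and -0.41 and stay below 0 with either library turned, and the other 10 lie between -0.10 and 0.11.

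Genes that supply sulfate and PAPS showed no shift that passed. Of 15 measured, 5 had positive and 10 negative differences, with a median of -0.04, and 0 passed over all genes (smallest limma adjusted p = 0.728). Cdo1, the cysteine dioxygenase that opens the route from cysteine to sulfate and taurine, had the smallest p, at -0.29 ± 0.17 in Tgfbr2+/- (SD, n = 6) and 0.04 ± 0.21 in WT (SD, n = 4), a difference of -0.33 ± 0.11 (SE). It was -0.13 with Tgfbr2+/- replicate 5 turned. The sulfate transporter Slc26a1 differed by -0.25 ± 0.11, or -0.05 with WT replicate 1 turned, and the sulfite oxidase Suox by -0.21 ± 0.11. The 2 PAPS synthases, named after their values were seen, differed by 0.24 ± 0.15 for Papss1 and 0.18 ± 0.15 for Papss2.

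Sulfatases, which remove the group again, and the Golgi sulfotransferases, which act on proteins and glycans, split evenly. Of 12 sulfatases 6 differences were positive and 6 negative (median -0.0005), with Sulf2, an extracellular heparan sulfate sulfatase, at -0.32 ± 0.12 (SE), Arsk at -0.10 ± 0.06 and Arsb at -0.09 ± 0.05. Of 30 Golgi sulfotransferases 15 were positive and 15 negative (median 0.001), with Chst7 at 0.26 ± 0.07, Hs6st1 at -0.21 ± 0.09 and Hs3st6 at 0.25 ± 0.13. The smallest limma adjusted p was 0.797 among sulfatases and 0.629 among Golgi sulfotransferases, so 0 passed in either.

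Of 16 receptors and related factors that bind xenobiotics, steroids or lipids, 10 had positive and 6 negative differences (median 0.02), and 0 passed (smallest limma adjusted p = 0.732). The 3 of smallest p were Ppara at 0.18 ± 0.06 (SE), the orphan receptor Nr0b2 at 0.44 ± 0.14 and the glucocorticoid receptor Nr3c1 at 0.14 ± 0.09, the last at -0.05 with WT replicate 1 turned. The receptors PXR (Nr1i2) and CAR (Nr1i3), named after their values were seen, differed by -0.15 ± 0.10 and -0.05 ± 0.06.

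Sex-biased liver genes differed in mean between the groups alongside the sulfotransferases. Of 24 measured female-biased genes 21 had negative differences (median -0.32), and the mean of the list ranged from -0.72 to -0.15 in Tgfbr2+/- libraries and from -0.29 to 0.06 in WT libraries. Cyp4a14 (-0.48 ± 0.12, SE), Gstt3 (-0.64 ± 0.16) and Cyp2b10 (-0.98 ± 0.27) had the smallest p. Gstt3 was at -0.26 with Tgfbr2+/- replicate 5 turned. Of 21 male-biased genes 16 were positive (median 0.16), with list means of -0.31 to 0.40 in Tgfbr2+/- and -0.48 to -0.20 in WT libraries, and Alas2 (0.15 ± 0.05), Ugt2b38 (1.48 ± 0.51) and Cyp7b1 (0.46 ± 0.17) had the smallest p. No gene of either list passed over all genes (smallest limma adjusted p = 0.469 and 0.683).

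Sult3a1, female-predominant itself, differed by -0.01 ± 0.13 (SE), and whether its probe had signal is not known. The list of 5 measured Y-linked genes, added after seeing the data, had means of -0.08 to 0.05 in Tgfbr2+/- and 0.01 to 0.05 in WT libraries, though a probe without signal would also give a ratio near 0. The WT labels state no sex, and the part of sex-biased expression in the sulfotransferase differences was not tested. With group means removed, r with the mean of the female-biased list over the 10 libraries was 0.77 for Sult1d1, 0.75 for Sult2b1 and 0.53 for Sult3a1. It was 0.11 for Sult1e1, 0.09 for Sult1a1, -0.11 for Sult1b1, -0.32 for Sult1c2 and -0.53 for Sult5a1, a description in which both measures come from the same arrays.

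Markers of macrophages were higher in mean in the heterozygous libraries, without passing the test. Of 13 Kupffer cell and macrophage markers 12 had positive differences (median 0.39), and the list mean ranged from -0.04 to 0.33 in Tgfbr2+/- and from -0.22 to -0.13 in WT libraries, with Cd5l at 0.67 ± 0.10 (SE) and Vsig4 at 0.48 ± 0.08. These were at 0.48 and 0.34 with WT replicate 1 turned, and Cd5l was at 0.50 with Tgfbr2+/- replicate 5 turned. Of 8 neutrophil markers 7 were positive (median 0.06, list means of 0.05 to 0.24 in Tgfbr2+/- and -0.14 to 0.05 in WT libraries). Of 9 hepatocyte markers, from the cells that hold most liver sulfotransferase, 4 were positive and 5 negative (median -0.02), with list means of -0.13 to -0.01 in Tgfbr2+/- and -0.16 to 0.14 in WT libraries. Lists for endothelial, stellate, bile duct, lymphoid, erythroid, pancreatic, gut and squamous epithelial cells had medians of -0.07 to 0.03. With group means removed, r with the macrophage list mean over the 10 libraries was -0.71 for Sult1d1, -0.59 for Sult1b1, -0.55 for Sult1e1, -0.49 for Sult1a1 and -0.44 for Sult2b1, and 0.35 to 0.50 for Sult5a1, Sult3a1 and Sult1c2. With the hepatocyte list mean it was 0.55 for Sult1e1, -0.55 for Sult1c2 and -0.03 for Sult1d1, and between -0.11 and 0.41 for the other 5. No marker passed over all genes (smallest limma adjusted p = 0.115), ratios show no marker's absolute level, and the part of these cell types in the sulfotransferase values was not tested.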

How the data were processed

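Total liver RNA was amplified by an automated aminoallyl MessageAmp II procedure and hybridised on 2-colour arrays, per the labels' protocols. The deposited table holds 1 log ratio per probe and library, taken here as log10: 8 values sit at the bounds 2 or -2, which on that scale mean 100-fold. Deposited column medians were 0.0013 to 0.0047 on the log10 scale. Background correction, normalization, the joining of dye swaps and signal intensities are not given in the sources used here, so dim probes could not be filtered. Centring was read from the values. Base and direction were inferred.

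After conversion to log2 (a factor of 3.32), the 17726 probes with 1 symbol were averaged to 16383 genes. Of the other probes, 50 carry several symbols and 5662 are unnamed here. Groups came from the titles. Limma 3.58.1 in R 4.3.3 (lmFit, eBayes, two-sided, Benjamini-Hochberg over all genes, threshold 0.05) fitted Tgfbr2+/- minus WT and the library-weighted mean against the pool. It was tested on simulated data. P-values measure the spread between these 10 animals, whose number limits the precision.

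The members and gene lists were chosen with earlier results of these data known. Named genes are the 8, the other measured cytosolic sulfotransferases, the 3 genes of smallest p in each list (2 at most for cell types), the 4 nearest in pattern to Sult1d1 and Sult2b1, and Tgfbr2; others are marked. Sequences are from RefSeq, GRCm38.p6, and all 8 genes matched by symbol.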

Additional observations from a re-analysis of the deposited data

Results flagged for a closer look

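Each of the 8 sulfotransferases, the 7 other measured ones and Tgfbr2 was examined in each group for a library far from the rest, by the gap to its nearest neighbour as a share of the group's range. Of 32 sets 2 were past the 95% limit, and chance gives about 1 in 20. Sult1d1 in Tgfbr2+/- replicate 3, at 0.05 with the next library at -0.53, had a gap of 0.733 of the range (limit 0.625 for 6 libraries). Sult2b1 in WT replicate 4, at -0.13 with the other 3 at 0.18, had a gap of 0.991 of the range (limit 0.829 for 4 libraries).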

How the results depend on the processing

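The differences of Sult1d1, Sult2b1, Sult1a1, Sult1b1 and Sult1e1 kept their sign under all 19 alternatives (turning a library, leaving out libraries, median centring, quantile normalization, array weights, a robust prior and a replicate block). Their ranges were -0.80 to -0.42 for Sult1d1, -0.52 to -0.32 for Sult2b1, -0.64 to -0.27 for Sult1a1, -0.51 to -0.06 for Sult1b1 and -0.69 to -0.21 for Sult1e1. Sult1c2 kept its sign under 18, Sult5a1 under 16 and Sult3a1 under 13. The 19 alternatives are not separate checks. A robust prior cannot change a difference, and median centring hardly moved any. The replicate block gave the same differences as leaving out Tgfbr2+/- replicates 5 and 6. The 8 were chosen with this contrast known, so these counts are a description. Against the pool, none of the 8 passed under any of 18 alternatives (smallest limma adjusted p = 0.144). The groups share replicate numbers 1 to 4, but deviations of same-numbered libraries correlated at only 0.01 to 0.30 and nothing says the numbers pair them. With the replicate number as a block the differences were -0.59 for Sult1d1, -0.42 for Sult2b1, -0.33 for Sult1a1, -0.21 for Sult1e1 and -0.06 for Sult1b1. By construction this leaves out Tgfbr2+/- replicates 5 and 6, whose numbers WT lacks, and it changed no call, with 0 genes passing.

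Between the genotypes 0 genes and 0 probes passed. Leaving out 1 library gave 0 to 10 genes and 0 to 15 probes, the highest in both cases without Tgfbr2+/- replicate 3. Against the pool 1 gene passed, with 0 to 11 when 1 library was left out (11 without Tgfbr2+/- replicate 5). The count was 3 with WT replicate 1 turned, 19 with Tgfbr2+/- replicate 5 turned, 7 without Tgfbr2+/- replicates 4 and 5, 6 without replicates 5 and 6 (chosen after seeing the data) and 2 with array weights. The cause of these changes in count was not tested. Of 1064 values of 56 named genes under alternatives, 1056 moved by less than the SD within groups. Of the other 8, Sult2a4 was at -0.02 with WT replicate 1 turned, and those of Cdo1, Slc26a1, Nr3c1, Gstt3, Cd5l and Vsig4 stand in the text. Each of the 8 sulfotransferases has 1 probe, so the alternative of single probes gave no other value. Signal over background is unknown, which limits what can be said of genes near 0.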
